A study of Mus musculus with 2 samples.

Results

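The genes described here are a set of 4: Bdnf and Ntf3, which encode the neurotrophins BDNF and neurotrophin-3, and Ntrk2 and Ntrk3, which encode their main receptors TrkB and TrkC. They were chosen by name, among 21938 protein-coding genes on chromosomes 1 to 19, X and Y. The protein mapped was CTCF, in forebrain of newborn mice (postnatal day 0) of strain B6NCrl, by chromatin immunoprecipitation and sequencing (ChIP-seq). The forebrains were pulverised and pooled from several dissections, sex was not recorded, and the tissue holds many cell types that a peak cannot tell apart. There was 1 group of 2 libraries, biological replicates 1 and 2, and their labels point to 1 shared biosample and donor, so differences between the libraries may be technical. No second condition was measured, and the possible control experiment that the labels cite was not analysed here.

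Neurotrophins are secreted growth factors that keep neurons alive and shape their connections. BDNF binds TrkB and neurotrophin-3 binds TrkC, and each receptor is a tyrosine kinase that starts Ras, phosphoinositide and phospholipase signalling in the neuron. In the forebrain BDNF and TrkB are best known for synaptic plasticity. The Bdnf gene has several promoters in a row, each of which makes its own untranslated 5′ exon spliced to the same coding exon. CTCF, a DNA-binding protein with many zinc fingers, stops cohesin as it extrudes loops of chromatin, most often between motifs that point towards each other.

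A CTCF site is here a summit of the optimal peak list, the longer of the authors' lists thresholded by the irreproducible discovery rate (IDR). That rate grades how well peaks repeat, and the shorter list is the conservative one. Of its 56470 peaks, 56462 lay on the placed chromosomes. Strength is the signal value that the authors' peak caller wrote, whose scale was not stated. A replicate's value is that of its strongest peak overlapping the site, from a list of 300000 peaks per replicate. Read depth is not given in the sources used here. The median ratio of replicate 1 to replicate 2 was 0.20 on the log2 scale over the 56235 sites with a peak in both, and ratios below are centred on it.

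The sequences of the sites on which the account of each gene turns are shown before their values. Each is the 30 bases around the best match to the 14-base core of the CTCF motif within 50 bp of the summit, both strands searched, read from GRCm38 (mm10). They are written 5′ to 3′ on the strand of the match, with the core in capitals. A site was said to hold the motif where the core had at most 2 mismatches. The first Bdnf sequence lies at a start site and the second is the strongest site of the gene:
Bdnf start site, chr2:109692408-109692437, − strand: gtgggagtCCACGAGAGGGCTCcacgctgc
Bdnf intron, chr2:109695006-109695035, − strand: cagtgtggCCAGAAGAGGGCACcctctacc
The Ntf3 sequences are its strongest intron site and its strongest site, which lies upstream and whose best match had 3 mismatches:
Ntf3 intron, chr6:126154468-126154497, + strand: aaaagtggACAGTAGATGGCAGtctgtccc
Ntf3 upstream, chr6:126167977-126168006, − strand: agtttcaaCCACACTGTGGCGCtattacaa
The Ntrk2 sequences are the promoter site, the intron site whose motif points towards it, and a pair of intron sites with the same core word:
Ntrk2 promoter, chr13:58806512-58806541, + strand: tcttctccCCACGCGGGGGCACcagagccc
Ntrk2 far intron, chr13:59073746-59073775, − strand: agaggcggCCAGCAGGGGTCTGcctagtct
Ntrk2 first repeat, chr13:58848767-58848796, + strand: aacaggagCCAGAAGAGGGCGTtcgatgcc
Ntrk2 second repeat, chr13:59117430-59117459, − strand: cgtggaagCCAGAAGAGGGCGTcagattcc
The Ntrk3 sequences are the strongest sites of its body, of the stretch upstream of its start sites, and of its upstream flank:
Ntrk3 near intron, chr7:78569083-78569112, − strand: cctggtggCCACAAGAGGGCAGcatgatgc
Ntrk3 upstream, chr7:78596094-78596123, − strand: ttttgtggCCGGTAGGTGGTGCtagatgct
Ntrk3 flank, chr7:78766495-78766524, − strand: catcgtatCCACAGGGAGGCGCcacacaca
Ntrk3 flank in Mrps11, chr7:78791658-78791687, + strand: acaagtgtCCATTAGATGGCAGtgcagtcc

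Of the 4 genes, 3 had a CTCF summit within 1 kb of a start site (Bdnf, Ntrk2 and Ntrk3), and Ntf3 had none. Over all protein-coding genes, 36.8% had one (8081 of 21938). By start site, 13 of the 19 start sites of the 4 genes had a summit within 1 kb, against 32.4% of the 32079 start sites of protein-coding genes. Start sites are the 5′ ends of GENCODE M21 basic transcripts, joined where they lay within 100 bp, and neighbouring start sites can share a summit. The 13 start sites shared 8 promoter summits, 4 at Bdnf, 3 at Ntrk2 and 1 at Ntrk3. In all, 47 sites lay within 100 kb of the genes, 7 for Bdnf, 4 for Ntf3, 17 for Ntrk2 and 19 for Ntrk3. With 1 group there was no contrast to test, and all counts are descriptions.

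**Figure D1:**
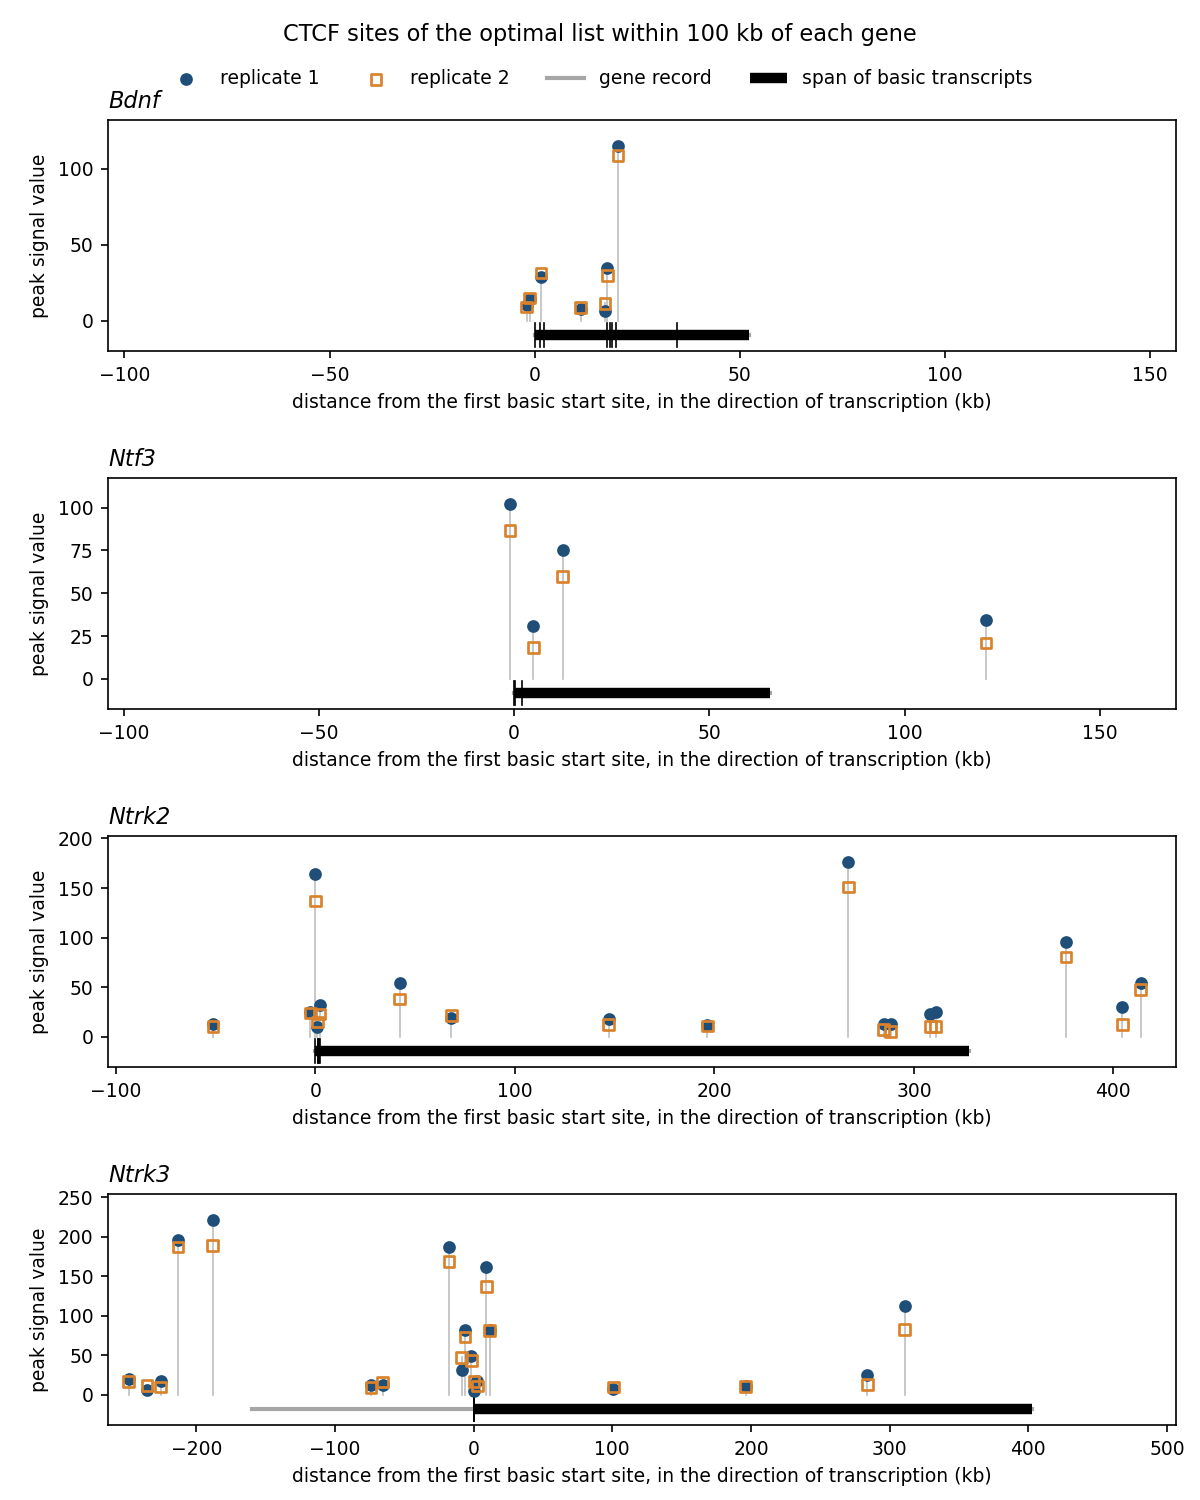
CTCF sites within 100 kb of Bdnf, Ntf3, Ntrk2 and Ntrk3, with the signal value of replicate 1 (filled circles) and replicate 2 (open squares) against the distance from the first basic start site in the direction of transcription, in kb. Black bars are the spans of basic transcripts, grey bars the whole gene records and black ticks the start sites. At Bdnf no site lies past 20331 bp, and at Ntrk3 the strongest sites lie around and upstream of the start sites.

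Bdnf (ENSMUSG00000048482.14, chr2:109674700-109727007, + strand, 52.3 kb) had 8 start sites in 11 transcripts, and 5 of the 8 had a summit within 1 kb. Among the 16 protein-coding genes with 8 or more start sites, 14 had a promoter summit (87.5%) and 3 had 4 or more of them (18.8%), as Bdnf did; their median was 2. Of the 7 sites, 6 fell in 3 places: upstream of the first start site, at the second and the third start sites, and at the group of 4 start sites from 17736 to 19709 bp into the gene. The conservative list held 5 of the 7 sites.

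The first start site had no summit within 1 kb, and neither replicate had a called peak there. A pair of weak sites lay just beyond that window. The nearer (chr2:109673302-109673601, 1248 bp upstream) had a signal value of 25.3, with 14.2 in replicate 1 and 15.0 in replicate 2, in a noncoding exon of Gm20638. The farther, 1944 bp upstream, had 21.2, with 10.4 in replicate 1 and 9.13 in replicate 2. The values of the replicates differed little at both, and both sites were also in the authors' conservative list. Neither held the motif.

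The second and the third start sites shared a summit at chr2:109676130-109676429, in the UTR. It lay 383 bp after the second start site, which opens 3 transcripts, and 752 bp before the third. Its signal value was 62.8, with 29.0 in replicate 1 and 31.6 in replicate 2, close to the median of the whole list, 64.3. The best match to the core had 5 mismatches. An intron site 11210 bp into the gene was among the weakest (17.5, with 8.04 and 8.79 in replicates 1 and 2) and was absent from the conservative list. Replicate 1 had no summit within 100 bp of it, so 8.04 is the value of an overlapping peak with its summit farther off.

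The group of start sites from 17736 to 19709 bp held the strongest binding of Bdnf. At the fourth start site the summit lay 18 bp upstream (chr2:109692268-109692567), with a signal value of 63.9, 34.9 in replicate 1 and 29.9 in replicate 2, and the motif with 2 mismatches. The same summit lay 609 bp upstream of the fifth start site. A weak summit 603 bp upstream of the fourth start site (chr2:109691683-109691982) had 16.9, with 6.43 in replicate 1 and 11.6 in replicate 2. It was absent from the conservative list, and its centred log2 ratio of -1.05 was the largest replicate difference among the Bdnf sites. Replicate 1 had no summit within 100 bp of this site, so 6.43 is the value of an overlapping peak with its summit farther off.

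The strongest Bdnf site lay 562 bp after the seventh start site, in an intron (chr2:109694922-109695121). Its signal value was 223, with 115 in replicate 1 and 109 in replicate 2, above 83.5% of all placed sites. The core had 1 mismatch, on the strand opposite to Bdnf. Its summit lay in annotated repeat sequence, and its core word, CCAGAAGAGGGCAC, was the best match at 1031 placed sites, 92.6% of them in repeats. The median signal value of those sites was 44.3, and 32 of them were stronger than the one in Bdnf.

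The sixth and eighth start sites had no summit within 1 kb. At the sixth, each replicate had a single peak that did not reach the optimal list, 7.32 in replicate 1 and 5.17 in replicate 2. Their q-values, as −log10, were 2.25 and 1.54. At the eighth, 34683 bp into the gene, neither replicate had a called peak. The eighth start site lay 14352 bp past the strongest site, and no summit of the optimal list followed within the gene. The next one downstream lay 137 kb beyond the end of Bdnf, with a signal value of 26.1, so that the last site of the gene was followed by 169 kb without a summit.

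**Figure D2:**
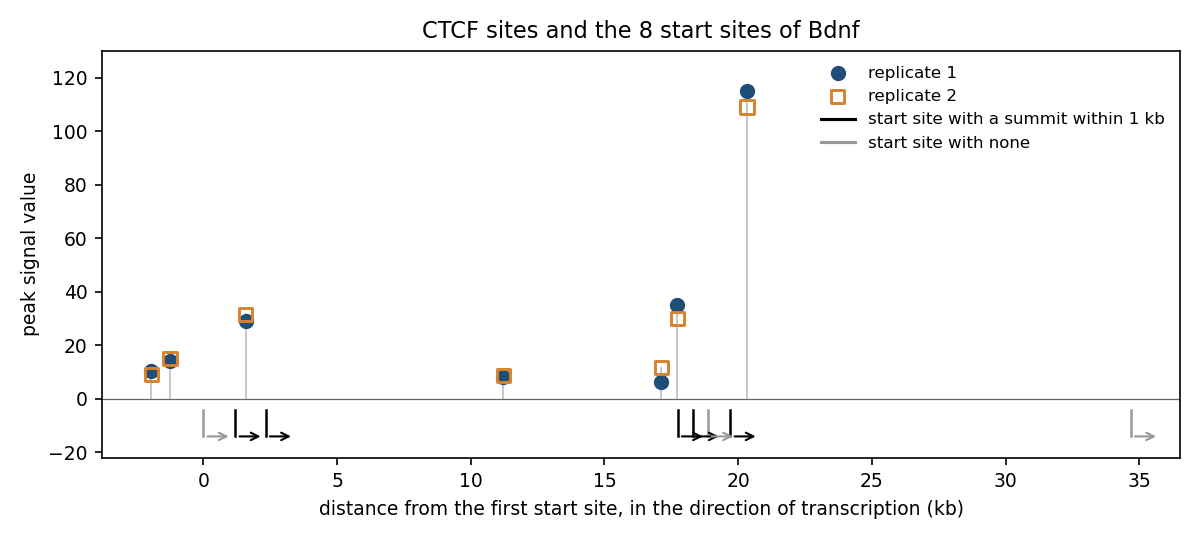
CTCF signal value in replicate 1 (filled circles) and replicate 2 (open squares) at the sites of Bdnf, against the distance from the first start site in kb. Arrows mark the 8 start sites, black where a summit lay within 1 kb and grey where none did. The strongest site, 115 in replicate 1 and 109 in replicate 2, lies after the seventh start site, and the eighth start site stands alone.

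Ntf3 (ENSMUSG00000049107.13, chr6:126101412-126166910, − strand, 65.5 kb) had 3 start sites and no summit within 1 kb of any. Of the 1324 protein-coding genes with 3 start sites, 49.4% had none either. Its strongest site was just past the window, 1076 bp upstream of the first start site (chr6:126167883-126168076). That site had a signal value of 190, with 102 in replicate 1 and 86.7 in replicate 2, above 78.9% of placed sites. The replicates had 1 peak each at the start sites themselves, all weak: 3.33 and 3.0 in replicates 1 and 2 at the first and second, and 4.84 and 3.69 at the third. None of these reached the optimal list. With a window of 5 kb in place of 1 kb, all 3 start sites of Ntf3 had a summit.

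The other Ntf3 sites were an intron pair and a site beyond the end of the gene. The stronger intron site (chr6:126154427-126154504) had 137, with 75.4 in replicate 1 and 59.8 in replicate 2, and a core with 1 mismatch. The weaker one (chr6:126161814-126162113) had 51.6, with 30.8 in replicate 1 and 18.2 in replicate 2, and a best match of 5 mismatches. The downstream site, 55.3 kb beyond the end of Ntf3 (chr6:126045944-126046243), had 56.3, with 34.1 in replicate 1 and 20.9 in replicate 2. All 4 Ntf3 sites were in the conservative list, and all had an IDR score of 1000, the highest in the list. Between the stronger intron site and the downstream site, 108 kb held no summit, which covered most of the transcribed Ntf3 sequence.

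Ntrk2 (ENSMUSG00000055254.15, chr13:58806569-59133970, + strand, 327 kb) had 5 start sites within 2122 bp, and all 5 had a summit within 1 kb. The first of its 3 promoter summits lay 38 bp upstream of the first start site (chr13:58806399-58806657). It had a signal value of 300, with 164 in replicate 1 and 137 in replicate 2, above 92.2% of placed sites. This was the strongest promoter site of the 4 genes. Its core held the motif with 2 mismatches in the direction of transcription, and only 3 placed sites had that core word as their best match.

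The other promoter summits of Ntrk2 were weaker and did not hold the motif. The one at 177 bp upstream of the second start site (chr13:58807370-58807669) had 27.7, with 10.2 in replicate 1 and 15.0 in replicate 2, and was absent from the conservative list. The one in the UTR, 78 bp before the fifth start site (chr13:58808463-58808762), had 55.5, with 32.5 in replicate 1 and 22.9 in replicate 2. A further site with the motif lay 2510 bp upstream of the first start site, with a signal value of 49.7, 25.1 in replicate 1 and 24.1 in replicate 2.

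The body of Ntrk2 held 11 summits, the weaker promoter pair included, and the strongest lay deep in the gene. It was an intron site 267 kb after the first start site (chr13:59073617-59073889), in an intron of 4930415C11Rik as well. Its signal value was 327, with 176 in replicate 1 and 151 in replicate 2, above 94.5% of placed sites. Its motif was on the − strand and that of the promoter site on the + strand, so the motifs of these strongest Ntrk2 sites pointed towards each other across 267 kb. A peak list does not measure loops, and none was tested. Between them stood 1 further motif match, in the + direction, so the promoter site was not the nearest facing match of the far intron site. That further match was at the intron site chr13:58848650-58848949 (93.1, with 54.0 in replicate 1 and 38.1 in replicate 2).

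That intron site shared its core word, CCAGAAGAGGGCGT, with a weaker Ntrk2 site in a later intron (chr13:59117292-59117591, 33.9, with 24.8 in replicate 1 and 10.4 in replicate 2). Both lay in annotated repeat sequence. The word was the best match at 503 placed sites, 90.3% of them in repeats, with a median signal value of 35.2. The site at 93.1 was exceeded by 49 of them. The 3 intron sites between it and the far intron site were weaker, from 24.8 to 43.7.

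Towards and beyond the 3′ end of Ntrk2, the replicates stood apart at the sites of low signal and lay close at the stronger ones. The 5 sites of the lowest signal, at 59091445, 59094986, 59114886, 59117442 and 59211034 (signal values 19.6, 19.3, 33.4, 33.9 and 40.5), the last of them in the middle tertile of the whole list, were all higher in replicate 1. Their centred log2 ratios were 0.60, 1.12, 0.95, 1.06 and 1.07, and 4 of the 5 were absent from the conservative list. At 59094986 neither replicate had a summit within 100 bp, so the ratio of 1.12 is between overlapping peaks with summits farther off. The 3 stronger sites of the same stretch had ratios of 0.03 (the intron site at 327), 0.04 (chr13:59182782-59182953, 178, in a noncoding exon of Gm34354) and -0.02 (chr13:59220125-59220424, 102). The site in Gm34354, 48.9 kb beyond the gene, was its nearest downstream summit, with 95.2 in replicate 1 and 80.6 in replicate 2. A weak site at 51351 bp upstream (24.2, with 12.6 and 10.6 in replicates 1 and 2) completed the upstream side.

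Ntrk3 (ENSMUSG00000059146.12, − strand) has a gene record of 562 kb, chr7:78175959-78738012, but its 4 basic transcripts span 402 kb and start at 78578408 or at lower coordinates. Its 3 start sites lay within 619 bp and shared 1 weak promoter summit. That summit (chr7:78577884-78578183), in the UTR and in annotated repeat, had a signal value of 23.3, with 5.43 in replicate 1 and 16.8 in replicate 2. Its centred log2 ratio of -1.83 was the largest replicate difference among the 47 sites. In replicate 1 the q-value behind it, as −log10, was 1.17, against 4.98 in replicate 2. The conservative list did not hold it, and without replicate 2 no Ntrk3 start site had a summit, so the promoter call at Ntrk3 rests on replicate 2.

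Strong sites lay on both sides of the Ntrk3 start sites. Inside the gene, a site 8676 bp after the last start site (chr7:78568984-78569221) had 299, with 162 in replicate 1 and 137 in replicate 2. Next to it, 2254 bp farther on, a site had 164, with 82.7 in replicate 1 and 81.3 in replicate 2. Both held the motif with 1 mismatch in the direction of transcription, and at both the replicates were close.

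Upstream of the start sites, but inside the gene record, lay 6 more sites. The strongest (chr7:78595968-78596222), 17700 bp before the first start site, had 352, with 187 in replicate 1 and 169 in replicate 2, above 96.3% of placed sites. The next, 6287 bp before the first start site, had 152, with 82.3 in replicate 1 and 73.0 in replicate 2, and a best match of 5 mismatches. A site in a noncoding exon of Gm9885, 1627 bp before the first start site, had 93.9, with 49.6 in replicate 1 and 43.2 in replicate 2. Another (chr7:78586862-78587161) had 83.1, with 32.1 in replicate 1 and 47.3 in replicate 2. The remaining pair had 27.8 and 24.0.

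Around the Ntrk3 start sites, 5 motif matches in a row were on the − strand, the strand of the gene. They were the sites of 164, 299, 83.1, 352 and 27.8, from 78566853 to 78643880. Far downstream, the intron site chr7:78267511-78267765 (195, with 113 in replicate 1 and 82.7 in replicate 2) had its motif on the + strand. It pointed towards the site of 299, at a distance of 301 kb. Between them stood 4 further motif matches, at sites of 38.8 (+ strand), 26.3 (− strand), 18.3 (+ strand) and 164 (− strand), so the site of 299 was not its nearest facing match. The rest of the Ntrk3 body held few and weak sites, of 18.3 to 38.8.

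The strongest sites within 100 kb of any of the 4 gene records were in the upstream flank of Ntrk3, far from its start sites. The nearest beyond the gene record, 28.5 kb away (chr7:78766291-78766650), had 406, with 221 in replicate 1 and 189 in replicate 2. The value of 406 was above 98.7% of placed sites. This site lay 188072 bp upstream of the first Ntrk3 start site, and 16609 bp from the nearest protein-coding start site, that of Mrpl46. Its best match had 3 mismatches. The next (chr7:78791543-78791810) lay 213267 bp upstream of the first Ntrk3 start site, in an intron of Mrps11, a mitochondrial ribosomal protein gene. It had 383, with 196 in replicate 1 and 187 in replicate 2, and the motif with 1 mismatch. The other 3 sites of this flank were weak, from 21.9 to 37.7. Downstream of Ntrk3 there was no summit within 100 kb. The first one lay 126 kb beyond the gene, with a signal value of 28.5, and the gap before it was 218 kb.

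Counted against gene length, Bdnf had the densest body of the 4 genes. It held 5 summits, its 4 promoter summits included, or 9.56 per 100 kb (exact Poisson 95% interval 3.10 to 22.3, counting error only). That density was above 88.9% of the 13905 protein-coding genes of 10 kb or more. Genes of 50 to 100 kb had a median of 2 (quartiles 1 and 3), and Ntf3 had 2, or 3.05 per 100 kb (0.370 to 11). Ntrk2 had 11, or 3.36 per 100 kb (1.68 to 6.01), against a median of 6 (3 and 9) in genes of 250 to 400 kb. Ntrk3 had 8, or 1.99 per 100 kb (0.858 to 3.92), against a median of 8 (5 and 14) in genes of 400 kb or more. The Ntrk3 count was 14, or 2.49 per 100 kb, over its whole gene record. The intervals of the 4 genes overlapped. Each had at least 1 body summit, as 67.7% of the protein-coding genes of 10 kb or more did, and each had a summit within 100 kb, as 90.4% of all protein-coding genes did.

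**Figure D3:**
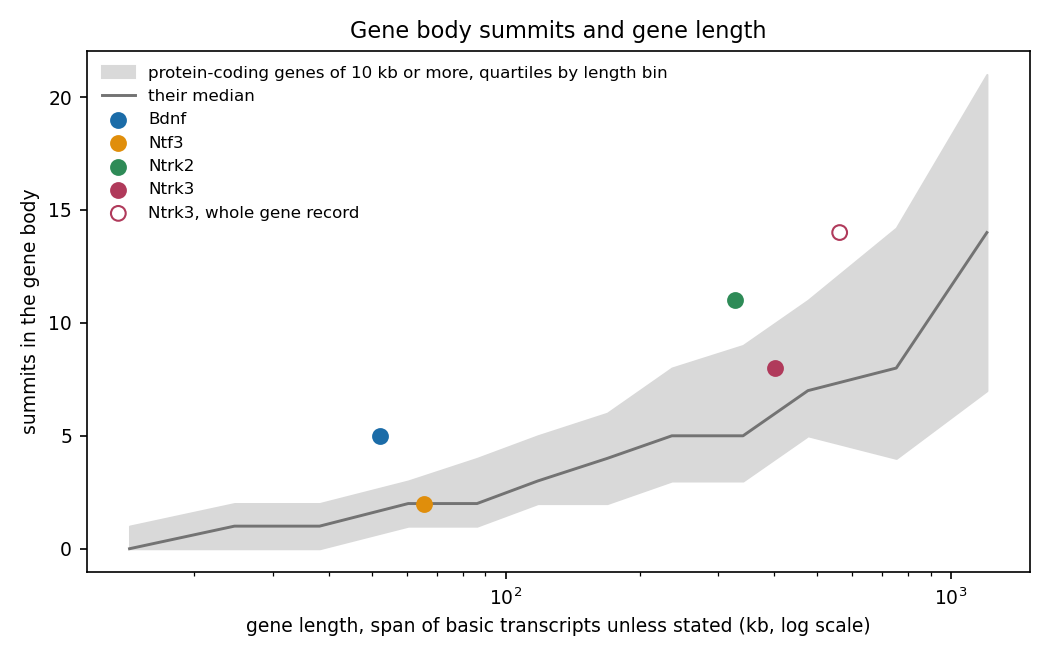
Summits in the gene body against gene length (kb, log axis) for Bdnf, Ntf3, Ntrk2 and Ntrk3 (points; open circle, Ntrk3 by its whole gene record), over the median and quartiles of protein-coding genes of 10 kb or more in bins of length (line and band). Bdnf with 5 and Ntrk2 with 11 lie above the upper quartile at their lengths, Ntf3 with 2 lies on the median, and Ntrk3 with 8 lies within the quartiles.

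Over the 47 sites of the 4 genes, the median signal value was 43.7, against 64.3 over all 56462 placed sites. By tertiles of the whole list, 13 sites were strong, 12 were in the middle and 22 were weak. The strong sites were 1 of 7 at Bdnf (223), 2 of 4 at Ntf3 (190 and 137), 3 of 17 at Ntrk2 (327, 300 and 178) and 7 of 19 at Ntrk3 (152 to 406). The conservative list held 37 of the 47, against 87.4% of all placed sites, and 31 had an IDR score of 1000, against 77.1%. Summits in repeats were 7 of 47, against 17.8%, and 15 of 47 sites lay within 2500 bp of another site, against 28.2%.

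The motif was found at 24 of the 47 sites, 51.1% (Wilson 95% interval 37.2 to 64.7%), against 66.6% of all placed sites. It was found in 2.91% and 2.97% of windows 1000 bp before and after the same summits. Of the 24, 11 had 1 mismatch and 13 had 2, and none had 0, against 5330 of all placed sites. At the 8 promoter summits the count was 3, against 36.0% of the 9355 placed sites within 1 kb of a protein-coding start site and 72.7% of the others. Of the 13 strong sites 9 held it, of the 12 middle sites 6, and of the 22 weak sites 9, against 85.6%, 66.2% and 48.0% in the same tertiles of the whole list. The strong sites without it were 3 sites with 3 mismatches, the upstream site of Ntf3, the site in Gm34354 and the flank site of Ntrk3 at 406, and 1 with 5 mismatches, the Ntrk3 site at 152.

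**Figure D4:**
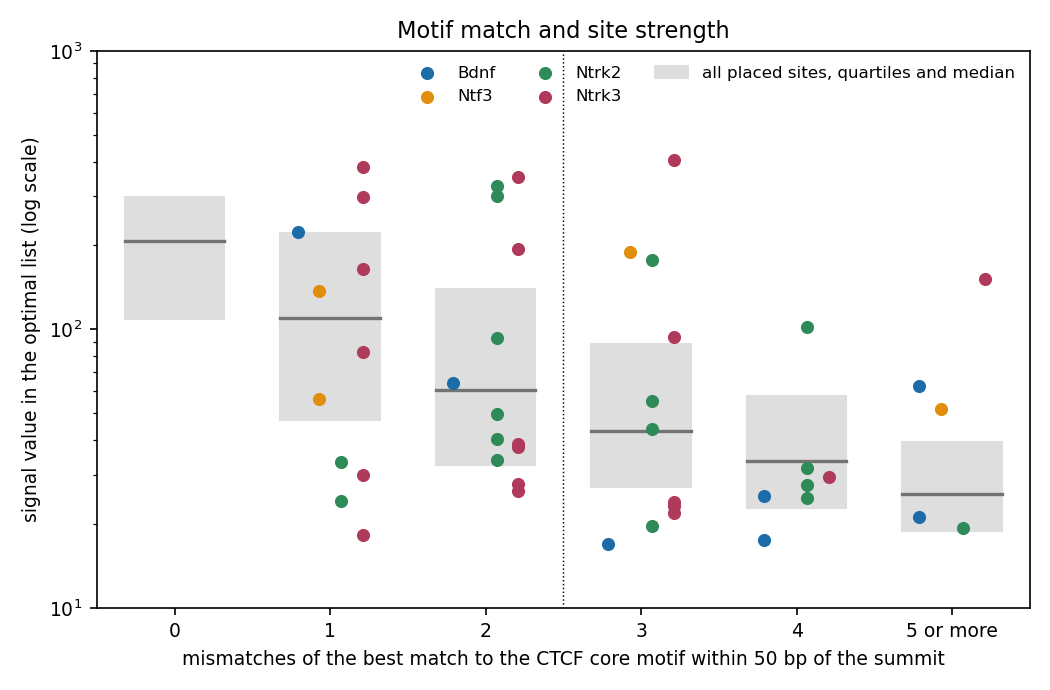
Signal value in the optimal list (log axis) against the number of mismatches of the best match to the CTCF core motif within 50 bp of the summit, for each site of Bdnf, Ntf3, Ntrk2 and Ntrk3 (points), over the quartiles and median of all placed sites (boxes and lines). The dotted line marks the limit of 2 mismatches. No site of the 4 genes has 0 mismatches, and those with 3 or more include the site at 406.

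Taking only the sites with the motif, neighbours within 100 kb of a gene made 20 pairs. In 10 the motifs ran the same way, in 5 they pointed towards each other and in 5 away from each other. Both Bdnf motifs were on the strand opposite to the gene, and so were both Ntf3 motifs. At Ntrk2, 6 of 8 ran with the gene and at Ntrk3 7 of 12. Neither the arrangement of neighbouring motifs nor their strand relative to a gene was counted over all placed sites. These counts, and the facing pairs and runs of motifs described above, are therefore not shown to be particular to these genes.

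The replicates were close at the strong sites of the 4 genes and spread at the weak ones. The SD of the centred log2 ratio was 0.57 over the 47 sites, against 0.50 over all placed sites. It was 0.11 over the 13 strong sites (0.19 for the strong tertile of the whole list) and 0.75 over the 22 weak ones (0.73). With the replicate summit nearest within 100 bp in place of the strongest overlapping peak, the SD was 0.53 over 44 sites. Of the 47 sites, 39 lay between the 10th and 90th percentile of all sites of like strength, 4 lay below and 4 above. At Ntf3 all 4 sites were relatively higher in replicate 1, by 0.03 to 0.56. At Bdnf 6 of 7 were relatively higher in replicate 2, with ratios from -0.01 to -1.05. Because the ratios are centred on the median, all placed sites fall about equally on either side. These few sites per gene set no direction for a gene. With 1 library on each side no test was possible.

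**Figure D5:**
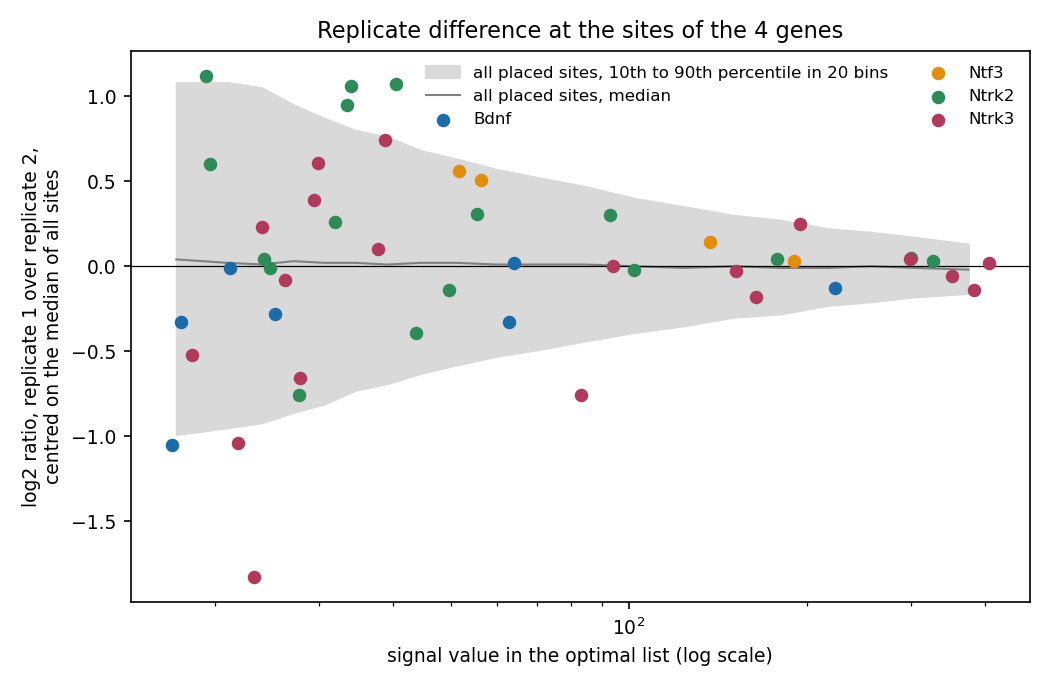
Centred log2 ratio of replicate 1 over replicate 2 against the signal value in the optimal list (log axis) for the sites of Bdnf, Ntf3, Ntrk2 and Ntrk3 (points), over the 10th to 90th percentile and the median of all placed sites in 20 bins of signal (band and line). The points spread at low signal and close in on 0 at high signal, and the lowest is the Ntrk3 promoter site at -1.83.

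Among 59 other genes of the neurotrophin pathway, 37 had a promoter summit (62.7%, Wilson 95% interval 50 to 73.9%), against 36.8% of protein-coding genes. The list was drawn up by hand with earlier results of these data known, and no test of it was made. The interval covers counting error only, not that choice. Ntf5, another neurotrophin gene, had none, with the nearest summit 8442 bp away. Of 7 receptor genes 6 had one, and Sort1, which encodes the sorting receptor sortilin, did not. The highest was at Sorcs2, a sortilin-family receptor gene (319, with 177 in replicate 1 and 146 in replicate 2). Sorl1, another sorting receptor gene, had 125, with 53.6 in replicate 1 and 72.3 in replicate 2.

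Of 7 genes listed for the processing of neurotrophin precursors, 1 had a promoter summit. It was Pcsk6, a proprotein convertase gene (70.2, with 50.6 in replicate 1 and 18.3 in replicate 2). Of 30 signalling genes downstream of the receptors, 21 had a promoter summit. The highest were Map2k1 (261), which encodes a kinase of the ERK cascade, Frs3 (219), which encodes an adaptor that binds activated Trk receptors, and Mapk3 (217), which encodes an ERK kinase. Of 13 genes for transcriptional regulators of Bdnf, 9 did, with the highest at Bhlhe40 (259), Usf2 (224) and Mef2d (59.1). Bhlhe40 encodes a basic helix-loop-helix repressor, Usf2 an E-box factor and Mef2d an activity-dependent factor. Where a gene of the 59 had a promoter summit, the median of its strongest signal value was 52.7, against 56.7 over all protein-coding genes with one.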

How the data were processed

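The deposited files were peak lists on mm10, per the labels: 1 per replicate, 1 called on both libraries together, and the authors' optimal and conservative IDR lists. The aligner, the caller and the number of reads were not given in the sources used here. The deposited lists give a signal value per peak, −log10 of a q-value, a summit offset and, in the authors' IDR lists, a score that ran from 537 to 1000. The signal value was used to rank and describe peaks, not as a measured level. The replicate and pooled lists each stop at 300000 peaks.

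Summits were set against GENCODE M21 basic transcripts. A promoter summit lay within 1 kb of a start site, a gene body was the span of basic transcripts, and the zone was the gene record with 100 kb on each side. The core motif was scanned in GRCm38 sequence, 50 bp to each side of the summit, and up to 2 mismatches counted as a match. Tested on simulated data, the scan gave no more mismatches than planted in 100% of 5000 windows. A search for the fewest mismatches gives this by design, and that figure does not score position or strand. It found a match in 1.76% of 5000 random windows, and the overlap step recovered 100% of 2000 planted values. Intervals are 95% and cover counting error only. Tools were Python 3.11.15, numpy 2.4.6, pandas 2.3.3, scipy 1.17.1, pysam 0.24.0, samtools 1.23.1 and matplotlib 3.10.9.

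The 4 genes and the pathway list were chosen with earlier results of these data known. Sites named singly were promoter sites, the 3 strongest body sites, the nearest site beyond each end and the strongest within 100 kb. Of the pathway list, the 3 highest genes per role were named, apart from items not reported here. Other sites, Sort1 and the repeated core words were named after their values were seen. Other settings tried were the conservative list, optimal-list sites at or above their median signal value, the strongest peaks of 1 replicate, all transcripts, and other windows, flanks, motif limits and overlap rules.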

Additional observations from a re-analysis of the deposited data

How the results depend on the processing

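The counts depend most on how strong a site must be. When a site needed a signal value at or above the median of the optimal list, start sites with a summit fell to 2 of 19, body summits to 7, summits within 100 kb to 17, motif matches to 11, pathway genes to 16 and all protein-coding genes with a promoter summit to 3704. Allowing 1 mismatch left 11 motif matches. Leaving out 1 replicate gave 10 to 13 start sites, 24 body summits either way, 42 to 45 summits within 100 kb, 22 to 26 motif matches, 36 to 38 pathway genes and 8170 to 8412 protein-coding genes. The SD of the replicate ratio fell to 0.23 among those stronger sites, against 0.57 over all 47. The other 33 values for the whole set stayed within 1.5 times of the main ones. For single genes, 74 values stayed so and 26 moved. This limit compares counts, not shares, so a change in the number of start sites does not register. With all transcripts, 14 of 33 start sites had a summit (42.4%), in place of 13 of 19 (68.4%). At Ntrk3 it was 4 of 15 (26.7%) in place of 3 of 3. The share over all start sites was not counted in that setting. Bdnf start sites with a summit were 2 at 500 bp in place of 5, those of Ntf3 were 3 at 5 kb in place of 0, and those of Ntrk3 were 0 in the conservative list, among the stronger sites and without replicate 2. The Ntrk3 body held 5 summits without replicate 2 and 14 with all transcripts. The cause of each was not tested. No paired analysis was possible because the series has 1 group. Depth, an input control and a second condition were not analysed here. A start site without a summit is therefore one with no optimal-list summit within 1 kb, not one shown to be free of CTCF.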

Other observations

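The replicate lists held further peaks near the 4 genes that did not overlap the optimal list. Over the whole genome each replicate list held 300000 peaks and the optimal list 56470, so many peaks outside it are usual anywhere. The share outside was not counted over the genome, so the counts below are not particular to these genes. In the zone of Bdnf, 21 of 29 replicate 1 peaks and 22 of 29 replicate 2 peaks lay outside it. Of those, 6 in replicate 1 and 8 in replicate 2 passed a q-value of 0.05, and 4 and 5 of these overlapped a called peak of the other replicate. At Ntf3, 24 of 28 replicate 1 peaks and 28 of 32 replicate 2 peaks lay outside, and 3 and 4 of them passed the q-value and overlapped a peak of the other replicate. At Ntrk2 these counts were 106 of 123 and 100 of 117, with 19 such peaks in each replicate. At Ntrk3 they were 95 of 115 and 101 of 120, with 12 in each replicate. The strongest replicate 1 peak outside the list at Bdnf had 14.1, at 4920 bp after the start of the gene, where replicate 2 had 7.07. Those of the other genes had 11.9 in replicate 1 and 9.70 in replicate 2 at Ntf3, 20.3 in replicate 1 and 6.04 in replicate 2 at Ntrk2, and 14.5 in replicate 1 and 7.15 in replicate 2 at Ntrk3. The strongest replicate 2 peaks outside the list had 8.79 at Bdnf, 10 at Ntf3, 13.3 at Ntrk2 and 10.5 at Ntrk3.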
